A study of Drosophila melanogaster with 36 samples.

Results

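The change of gene expression with age was compared between 2 kinds of glia sorted from fly brains, the ensheathing glia (EG) marked by the driver line GMR56F03 and the astrocyte-like glia (AG) marked by GMR86E01. The libraries were chosen by their labels: 12 of the 36 in the series, 3 replicates of each glial type at 70 days (d70) and at 5 days (d5). The question was whether a gene changed with age by a different amount, or in a different direction, in EG and in AG. For each gene the difference in age effect was the log2 change in EG (d70 minus d5) minus the log2 change in AG (d70 minus d5), so that a positive value means a higher age change in EG.

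The 4 groups were EG from old flies, EG from young flies, AG from old flies and AG from young flies, all female Drosophila melanogaster. In each line a GAL4 driver expressed GFP in 1 glial type, brains were pooled and dissociated with actinomycin D, which blocks new transcription, and living GFP+ cells were sorted with a gate set on brain tissue without GFP. Messenger RNA was amplified with Smart-seq3, a method that copies full-length transcripts by template switching. Each glial type was represented by 1 driver line here, so that driver line and glial type cannot be told apart, and unsorted suspensions of the same brains (whole brain) and a second EG line, GMR10E12, gave libraries against which the difference was set. In a bulk sample fewer cells of a type and less RNA per cell cannot be told apart. The labels give no date or batch, and p-values measure only the spread between these pools of brains.

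Ensheathing glia line the neuropil, the zone of the fly brain where axons, dendrites and synapses lie, and separate it from the layer of cell bodies; they engulf debris after injury. Astrocyte-like glia send fine branches into the neuropil, where they take up glutamate and GABA released at synapses and recycle them. Both derive from a common neuropil glia lineage, share many transcripts, and are the nearest glial counterparts of each other.

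Levels are given as CPM (the count of a gene as a share of its library, multiplied to a fixed library total), scaled by edgeR's TMM method over the 12 libraries, and tests are edgeR's quasi-likelihood test over 9122 genes with Benjamini-Hochberg adjustment, with genes called at an adjusted p below 0.05. The libraries held between 1514977 and 17060052 counts on 7970 to 11149 genes. The 3 young AG libraries stood apart in composition. Their TMM factors were 0.774 to 0.818, against 1.02 to 1.13 in the other 9 libraries, and their 10 most abundant genes held 23.6% to 25.0% of the counts, against 10.0% to 17.7% in the others. Genes of the mitochondrial genome held 6.21% to 6.84% of counts in old EG, 9.86% to 11.4% in young EG, 7.72% to 12.3% in old AG and 13.4% to 16.0% in young AG. On log2 (CPM + 1) over 9122 genes, libraries of old EG and old AG correlated with Pearson's r of 0.895 to 0.942 (median 0.932), and libraries of young EG and young AG with r of 0.817 to 0.906 (median 0.866). Within groups r was 0.949 to 0.960 in old EG, 0.945 to 0.955 in young EG, 0.889 to 0.940 in old AG and 0.870 to 0.921 in young AG. Replicate 1 of old AG stood apart from the other old AG libraries in markers of photoreceptors, whose summed level was 644 CPM there and 4070 and 4636 CPM in replicates 2 and 3.

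The age effect differed between the glial types at 241 of 9122 genes (2.64%), and it was higher in EG at 59 (0.647%) and lower in EG at 182 (2.00%). Across the same genes age changed 510 in EG (5.59%), of which 305 rose and 205 fell, and 1493 in AG (16.4%), of which 856 rose and 637 fell. Over all 9122 genes the age changes of EG and AG had a Pearson's r of 0.41 and a Spearman's rho of 0.31, a description across genes, which are not independent replicates. Both types had 264 called genes in common, and 256 of these moved the same way while 8 fell in EG and rose in AG. The number of genes whose age effect differed was sensitive to single libraries. It was 49 without young EG replicate 1, 89 without young EG replicate 2, 118 without old EG replicate 1, 62 without old EG replicate 2, 42 without old EG replicate 3, 119 without young AG replicate 2, 601 without young AG replicate 3, 157 without old AG replicate 1 and 118 without old AG replicate 3. The count of 510 age changes in EG was 146, 151 and 305 without replicate 1, 2 or 3 of young EG and 199, 181 and 190 without replicate 1, 2 or 3 of old EG. In each of the 12 fits that left out 1 library all 241 genes kept their direction, and 37 of them were called in every such fit, 5 higher and 32 lower. With total counts as the scale in place of TMM the median AG age effect over all genes was 0.52 in place of 0.14, and 400 genes were called, 19 higher and 381 lower. On that scale 1879 genes rose and 336 fell in AG, whereas in a fit of the 6 AG libraries alone 240 rose and 313 fell. Which type had more age changes also turned with the fit. The 6 libraries of each type fitted alone gave 1297 genes in EG and 553 in AG, and limma voom gave 1592 and 922. Counts of genes called in EG or in AG below are those of the fit over 12 libraries and depend on it.

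**Figure D1:**
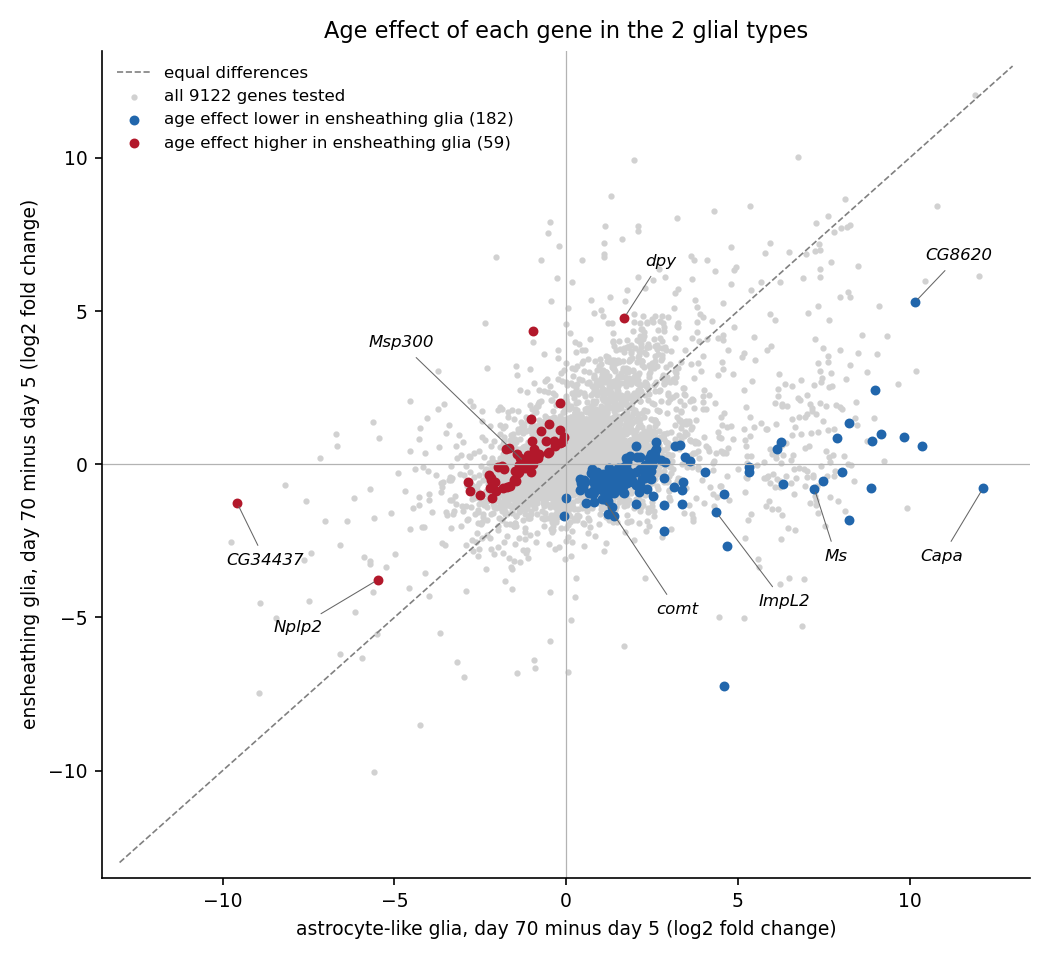
Log2 change with age in AG (x axis) and in EG (y axis) for the 9122 genes tested, with genes whose age effect was lower in EG in blue (182), higher in EG in red (59), others in grey, and equal changes on the dashed line. The blue genes lie mostly at positive AG changes and the red genes at negative AG changes. The EG changes of the red genes lie around 0 (median 0.05). Those of the blue genes lie mostly below 0 (median -0.48, with 29 of 182 positive).

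The 182 genes with a lower age effect in EG were mostly genes that rose in AG, and the 59 with a higher one were mostly genes that fell in AG. These counts come from the same 12 libraries as the difference itself and describe it. Among the 182 genes, 1 rose and 14 fell in EG (3.34% and 2.25% of all genes), and 166 rose and none fell in AG (9.38% and 6.98% of all genes). Among the 59 genes, 11 rose and 9 fell in EG, and 1 rose and 46 fell in AG. The median EG change was -0.48 for the 182 genes and 0.05 for the 59 genes, while the median AG change was 1.62 and -1.34. Of the 182 genes 6 were called in EG alone, 157 in AG alone, 8 in both in opposite directions, 1 in both in the same direction and 10 in neither. Of the 59 genes 10 were called in EG alone, 37 in AG alone, 10 in both in the same direction and 2 in neither. Genes of the 182 had a median exonic length of 3379 bases and those of the 59 of 2235 bases, against 2169.5 bases over all genes with a position.

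Seen by age rather than by type, EG and AG differed more at 5 days than at 70 days. At d70 28 genes differed between EG and AG (0.307%, 17 or 0.186% higher and 11 or 0.121% lower in EG), and at d5 1379 did (15.1%, 813 or 8.91% higher and 566 or 6.20% lower in EG). The d70 count was 13, 13 and 16 without replicate 1, 2 or 3 of old EG, and 60 and 15 without replicate 2 or 3 of old AG, and the d5 count was 772 without replicate 1 of young EG. On the scale of total counts 29 genes were higher and 11 lower in EG at d70, and 1697 higher and 260 lower at d5. A difference of more than 1 on the log2 scale was found at 10.1% of genes at d70 and at 30.0% at d5. The difference in age effect is the d70 difference between the types minus the d5 difference in the same fit. Genes chosen by it must therefore differ between the types at 1 age or the other, and the counts that follow describe that choice. Of the 182 genes with a lower age effect in EG 180 were higher in EG at d5 and none was at d70. Of the 59 with a higher age effect 55 were lower in EG at d5, and at d70 1, ebony (e), was lower and 1, CG34437, was higher. The median difference between the types was -0.12 at d70 and 1.96 at d5 for the 182 genes, and -0.20 and -1.44 for the 59 genes. The median size of the difference at d70 was 0.25 for the 182 genes and 0.28 over all 9122 genes.

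**Figure D2:**
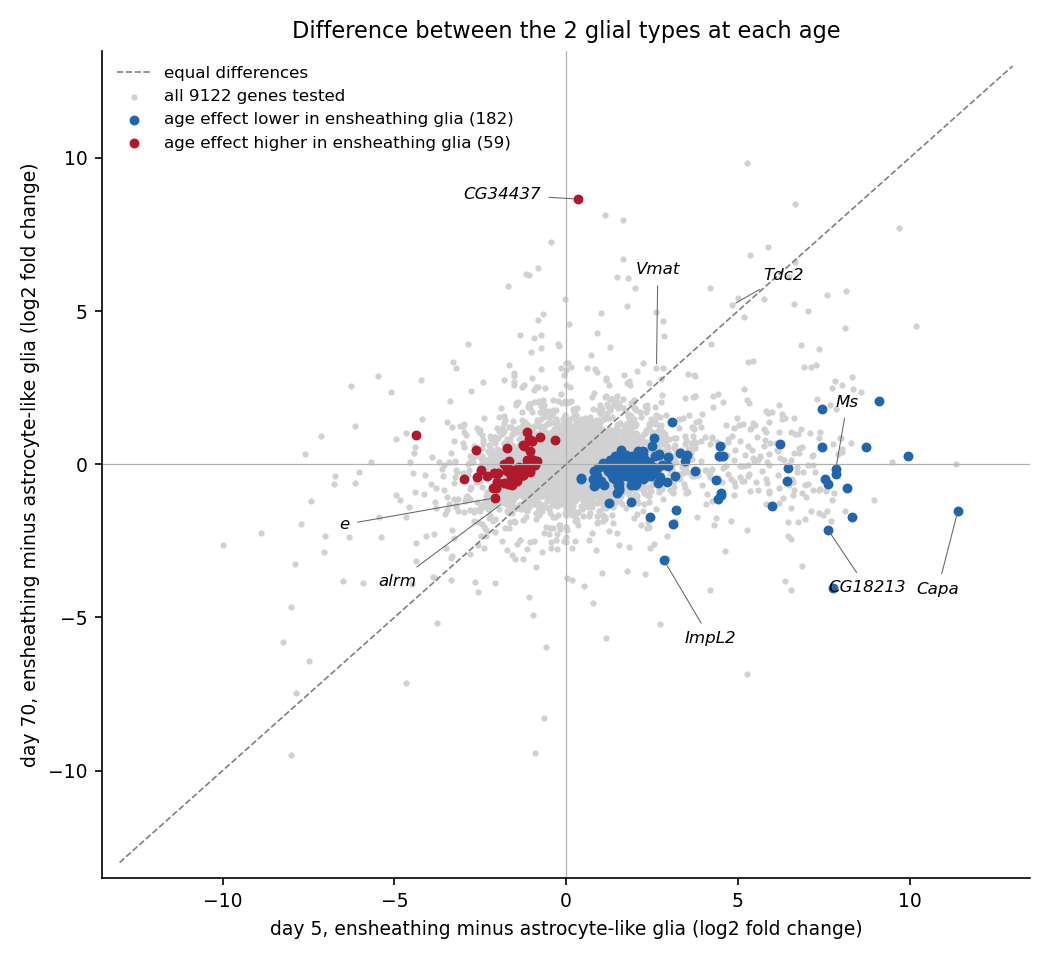
Log2 difference between EG and AG at d5 (x axis) and at d70 (y axis) for the 9122 genes tested, with the 182 genes of lower age effect in EG in blue, the 59 of higher age effect in red and others in grey. Blue and red genes are spread to the right and left at d5 and lie near 0 at d70.

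Genes by which astrocyte-like glia are known fell with age in both types, and some fell further in AG. All 5 astrocyte-like glia markers tested (alrm, Eaat1, Gat, AANAT1 and wun2) fell in EG and in AG, with medians of -1.15 and -2.29, against 0.02 and 0.14 over all genes. Of all genes 2.25% fell in EG and 6.98% in AG. The difference in age effect passed the test as higher for AANAT1 and Eaat1, 2 of the 5, against 0.647% of all genes. DESeq2 and limma voom called 4 each and total counts as the scale 1. AANAT1, an enzyme that inactivates monoamines by acetylation, had 124, 95.8 and 131 CPM in old EG and 214, 207 and 274 in young EG, against 146, 128 and 134 in old AG and 765, 824 and 707 in young AG. The old libraries of both types overlapped and the young ones were apart, with all 3 young AG libraries above every other. The change was -0.99 ± 0.17 (SE) in EG and -2.50 ± 0.18 in AG, a difference of 1.51 ± 0.24 (edgeR adjusted p = 0.012), called in all 12 fits without 1 library. AANAT1 overlaps other genes on the opposite strand, and strand use in counting is not stated.

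Eaat1, the transporter that clears glutamate from synapses, had 727, 736 and 690 CPM in old EG and 1525, 1642 and 1458 in young EG, against 1368, 889 and 1128 in old AG and 4695, 4751 and 5534 in young AG. The old AG libraries lay above the old EG libraries without overlap, and the young AG libraries far above all others. The difference in age effect was 1.04 ± 0.21 (edgeR adjusted p = 0.026). For alrm, a leucine-rich repeat protein and the usual astrocyte marker, the levels were 713, 768 and 780 CPM in old EG and 2246, 2291 and 2383 in young EG, against 2097, 1256 and 1989 in old AG and 8357, 8657 and 7319 in young AG. At either age alrm was higher in every AG library than in every EG library of that age, with a log2 difference of -1.24 ± 0.17 at d70 (EG minus AG, edgeR adjusted p = 0.0047) and -1.81 ± 0.17 at d5 (edgeR adjusted p = 6.0e-05), so the labels of the sorted cells fit this marker. It fell with age by 1.61 in EG and by 2.19 in AG, and the difference of 0.57 ± 0.23 did not pass the test (edgeR adjusted p = 0.21). Gat, which takes up GABA, was close to the threshold with a difference of 1.08 ± 0.27 (edgeR adjusted p = 0.056). The summed level of the 5 markers was 2888 to 2958 CPM in old EG and 7170 to 7567 in young EG, against 3688 to 6514 in old AG and 23900 to 25661 in young AG.

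Other genes of transmitter uptake and recycling moved in both types. Of 11 such genes tested 8 fell in EG and 7 in AG (2.25% and 6.98% of all genes). The age effect was higher in EG at 4 (AANAT1, Eaat1, Gs2 and e) and lower at 1, Gs1 (0.647% and 2.00% of all genes). The median difference of the 11 was 0.17. It was -0.14 with total counts as the scale, with 1 gene called higher and 1 lower. Gs2, the cytosolic glutamine synthetase that turns glutamate into glutamine, had 5092, 4914 and 4876 CPM in old EG and 7174, 6321 and 8124 in young EG, against 8868, 5780 and 6886 in old AG and 19970, 19779 and 18828 in young AG. Every young AG library lay above all others, and the difference in age effect was 0.91 ± 0.20 (edgeR adjusted p = 0.036). Gs1, the mitochondrial glutamine synthetase, went the other way, with 121, 118 and 140 CPM in old EG and 246, 255 and 184 in young EG, against 139, 125 and 138 in old AG and 105, 101 and 100 in young AG. Here the young EG libraries were the ones above all others. Gs1 fell in EG by 0.85 ± 0.17, did not pass the test in AG (0.39 ± 0.17, edgeR adjusted p = 0.14), and differed in age effect by -1.24 ± 0.24 (edgeR adjusted p = 0.022).

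The gene ebony (e), which joins beta-alanine to dopamine and histamine, had 249, 246 and 200 CPM in old EG and 411, 326 and 429 in young EG, against 549, 414 and 525 in old AG and 1748, 1650 and 1484 in young AG. It was lower in EG at both ages, and its difference in age effect was 0.97 ± 0.23 (edgeR adjusted p = 0.049). The FGF receptor Heartless (htl), which guides the outgrowth of astrocyte-like glia, had 160, 174 and 180 CPM in old EG and 293, 328 and 315 in young EG, against 243, 204 and 244 in old AG and 846, 972 and 1008 in young AG. It fell in both types, with a difference of 1.17 ± 0.20 (edgeR adjusted p = 0.013). No marker of ensheathing glia, of 5 tested, differed in age effect in edgeR (1 at an unadjusted p below 0.05), against 2.64% of all genes, and none did in DESeq2 or limma voom. The median difference of these 5 was 0.26, and -0.05 with total counts as the scale. Their summed level was 1288 to 1437 CPM in old EG and 2117 to 2219 in young EG, against 734 to 1036 in old AG and 1455 to 1763 in young AG. Within this list Eaat2, an amino acid transporter, was the 1 that differed between the types at d70. It had 398, 362 and 316 CPM in old EG and 181, 138 and 116 in old AG (1.31 ± 0.20, edgeR adjusted p = 0.012). Its age effect did not pass the test of a difference (-0.20 ± 0.28, edgeR adjusted p = 0.78).

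The gene with the smallest p among those higher in EG was Msp300 (FBgn0261836, chromosome 2L, 5100877 to 5207002, plus strand, dm6), a giant nesprin that ties nuclei and other organelles to the cytoskeleton. Msp300 had 932, 908 and 854 CPM in old EG and 849, 880 and 834 in young EG, against 974, 949 and 939 in old AG and 2364, 2087 and 2168 in young AG. The 3 young AG libraries lay above the other 9, which were close to each other. The difference in age effect was 1.28 ± 0.16 (edgeR adjusted p = 0.0033), from a change of 0.07 ± 0.11 in EG and -1.21 ± 0.11 in AG, and it was called in all 12 fits without 1 library. CG34437 was the reverse case at d70. It had 5.27, 7.94 and 8.26 CPM in old EG and 19.7, 18.8 and 13.1 in young EG, against no count in any old AG library and 22.3, 12.3 and 7.37 in young AG. Set against a floor of 3 counts per library, old EG was at least 21.4-fold higher than old AG, and old AG at least 41.7-fold lower than young AG.

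Blood cell markers fell in AG, and none passed the test in EG. Hemocytes, the blood cells of the fly, can cling to dissected brains. Of 11 markers none fell in EG (2 at an unadjusted p below 0.05) and 8 fell in AG in edgeR, against 2.25% and 6.98% of all genes. The medians were -0.34 in EG and -1.87 in AG. The age effect was higher in EG for 3 of the 11, NimC1, crq and Pxn (0.647% of all genes), and the median difference was 1.74. None of the 11 was called with total counts as the scale, and the median was 1.42. NimC1, a phagocytic receptor of plasmatocytes, had 86.5, 216 and 191 CPM in old EG and 173, 222 and 114 in young EG, against 196, 129 and 162 in old AG and 621, 586 and 572 in young AG. Old EG, young EG and old AG overlapped and young AG lay above them. The difference was 1.83 ± 0.44 (edgeR adjusted p = 0.049). For crq, the scavenger receptor Croquemort, it was 1.33 ± 0.30 (edgeR adjusted p = 0.039), and for Pxn, the matrix enzyme peroxidasin, 1.66 ± 0.40 (edgeR adjusted p = 0.049). Both overlap a gene on the other strand. Hml, the clotting protein hemolectin, had 328, 683 and 825 CPM in old EG and 829, 1618 and 842 in young EG, against 354, 350 and 567 in old AG and 3016, 2299 and 2828 in young AG, and missed the threshold (1.84 ± 0.48, edgeR adjusted p = 0.058).

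The summed hemocyte markers were 969 to 2353 CPM in old EG and 2171 to 5945 in young EG, against 1512 to 1650 in old AG and 7790 to 20086 in young AG. Whether hemocytes in the sorted suspensions contributed to the differences in these genes was not tested. Of 9 genes of the basement membrane, the sheet of collagen and laminin around tissues, 1 fell in EG and 8 in AG (2.25% and 6.98% of all genes). Pxn was the 1 of them that differed in age effect (5 in DESeq2, none with total counts as the scale). Their median change was -0.63 in EG and -2.18 in AG, and the median difference 1.32. Of 16 engulfment genes 3 had a higher age effect in EG, namely crq, mbc and Pvr, and none a lower one in edgeR (0.647% and 2.00% of all genes). The median difference of the 16 was 0.64. With total counts as the scale none was called higher and 1 lower, and the median AG change, -0.34 here, was 0.05. The gene mbc, which encodes an activator of Rac used in engulfment, had 161, 172 and 201 CPM in old EG and 299, 275 and 305 in young EG, against 334, 247 and 272 in old AG and 844, 906 and 885 in young AG (0.91 ± 0.22, edgeR adjusted p = 0.048). Young AG again exceeded the other groups without overlap.

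**Figure D3:**
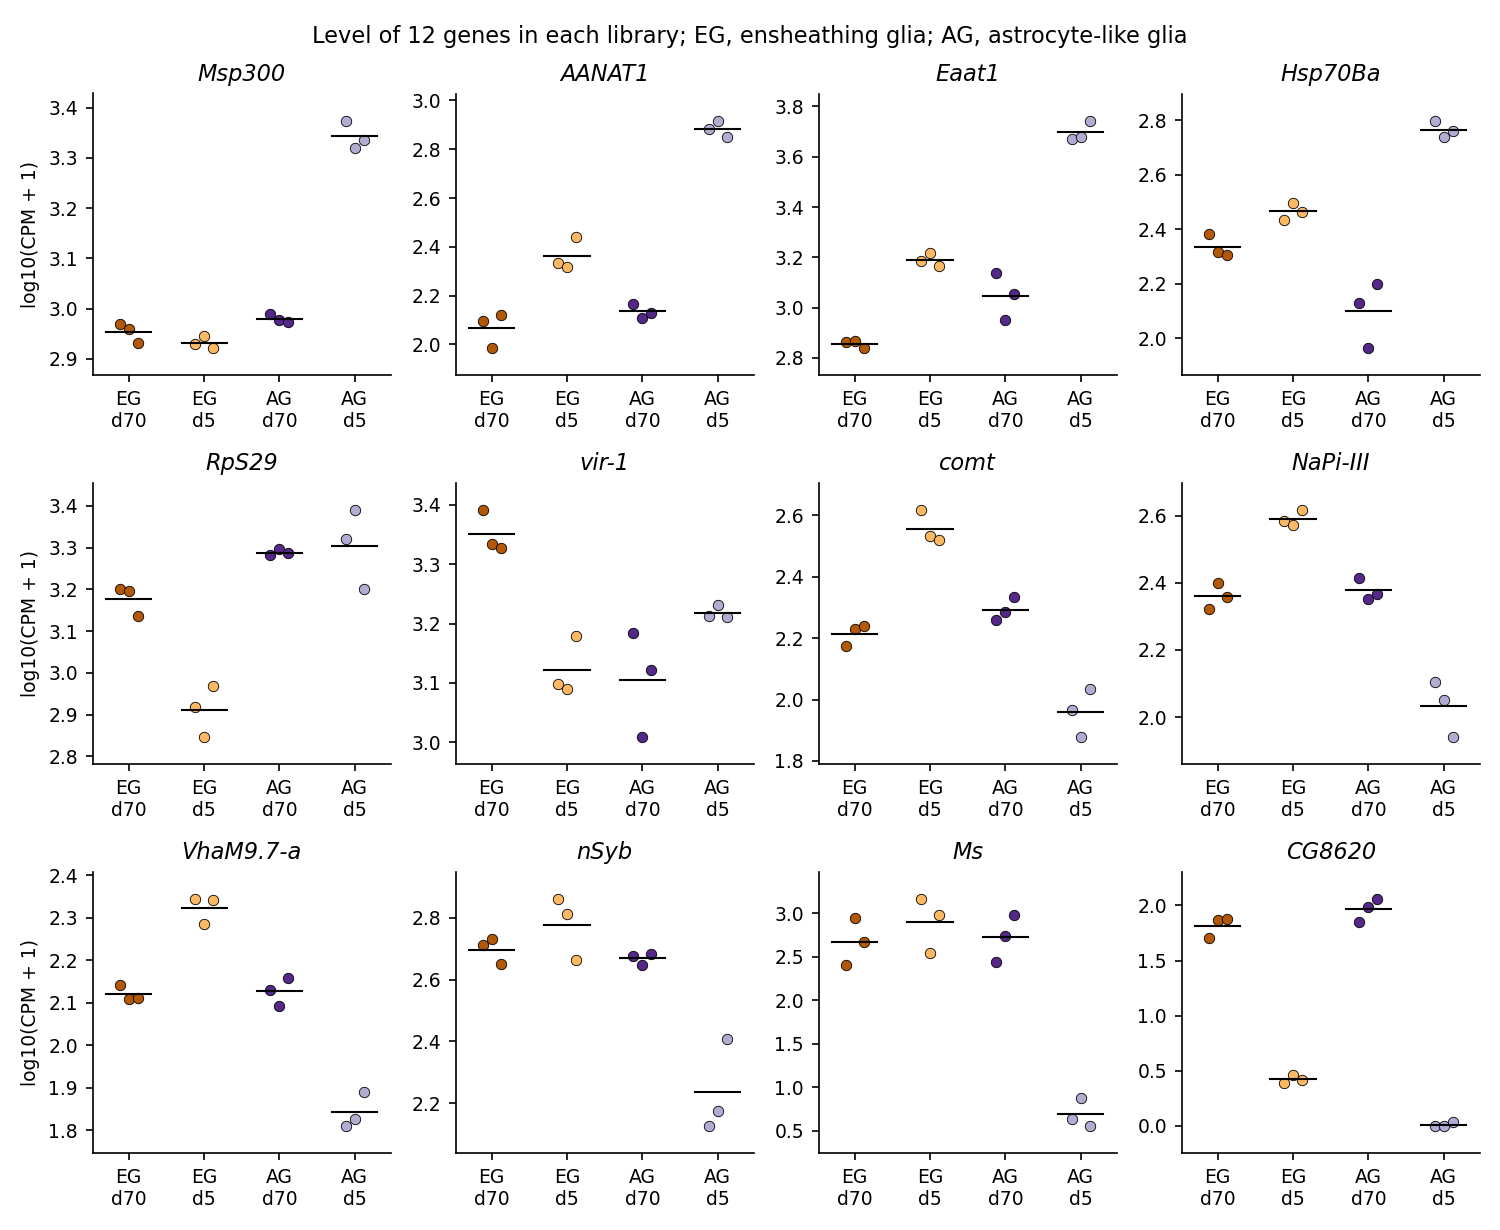
Level of 12 genes as log10 (CPM + 1) in the 3 libraries of each group (points), with the mean of the log values as a bar, in the order old EG, young EG, old AG and young AG. Msp300, AANAT1, Eaat1 and Hsp70Ba are highest in young AG, and comt, NaPi-III, VhaM9.7-a, nSyb, Ms and CG8620 lowest there, while RpS29 is lowest and vir-1 is highest in an EG group.

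Cytoplasmic ribosomal protein genes rose in EG, and few passed the test in AG. Of 85 tested, 30 rose and none fell in EG (3.34% and 2.25% of all genes). In AG 1 rose and 6 fell, where 9.38% and 6.98% of all genes did, and the medians were 0.53 in EG and -0.24 in AG. The AG change was negative for 75 of the 85. At an unadjusted p below 0.05 22 of the 85 were lower in old AG, against 1091 of all 9122 genes. With total counts as the scale the AG median was 0.15 and the EG median 0.60. The difference in age effect was positive for 84 of the 85, and its median was 0.78. It passed the test as higher for 4, RpS29, RpL27A, RpS28b and RpL24, against 0.647% of all genes. With total counts as the scale none was called and the median was 0.46, while DESeq2 called 58 and limma voom 60, all higher in EG. RpS29, a small subunit protein, had 1585, 1569 and 1370 CPM in old EG and 830, 702 and 930 in young EG, against 1912, 1980 and 1932 in old AG and 2091, 2459 and 1584 in young AG. The young EG libraries were lowest, the AG libraries of both ages overlapped, and old EG reached just up to the lowest young AG library. RpS29 rose in EG by 0.88 ± 0.16 (edgeR adjusted p = 0.010), did not pass the test in AG (-0.07 ± 0.16, edgeR adjusted p = 0.80), and its difference was 0.95 ± 0.23 (edgeR adjusted p = 0.049). For RpL27A, RpS28b and RpL24 the differences were 0.89 to 0.93. All 4 passed in 2 of the 12 fits without 1 library, and RpS29, RpS28b and RpL24 overlap a gene on the other strand. At d70 none of the 85 genes differed between EG and AG in edgeR, where 0.307% of all genes did. At an unadjusted p below 0.05 20 of the 85 were lower in EG then, against 311 of all 9122 genes. At d5 80 of the 85 were lower in EG, against 6.20% of all genes.

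Few genes with a difference in age effect were called in EG and not in AG, where missing the threshold does not mean no change. Of the 16 genes called in EG and not in AG, vir-1 was the 1 among the 12 genes of smallest p in its direction. It is a target of the JAK-STAT pathway named for its induction by viruses, and had 2465, 2156 and 2123 CPM in old EG and 1252, 1227 and 1511 in young EG, against 1527, 1020 and 1324 in old AG and 1632, 1701 and 1628 in young AG. Old EG lay above every other library. It rose in EG by 0.76 ± 0.15 (edgeR adjusted p = 0.015). In AG the change of -0.36 ± 0.15 did not pass the test (edgeR unadjusted p = 0.037, adjusted p = 0.13), though every old AG library lay below every young one. Its difference, to which both changes added, was 1.11 ± 0.22 (edgeR adjusted p = 0.023), called in 6 of 12 fits without 1 library. The giant extracellular matrix protein dumpy (dpy) rose in both types and more in EG. It had 111, 82.3 and 87.8 CPM in old EG and 0.481, 2.31 and 5.69 in young EG, against 60.3, 104 and 39.8 in old AG and 9.92, 22.2 and 28.5 in young AG. The old groups overlapped and young EG was lowest, with a difference of 3.09 ± 0.75 (edgeR adjusted p = 0.049).

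Neuronal transcripts rose in AG with age, and in EG none passed the test as higher. Of 24 neuron markers none rose (4 at an unadjusted p below 0.05) and 1 fell in EG in edgeR (3.34% and 2.25% of all genes). In AG 17 rose and none fell (9.38% and 6.98% of all genes). The medians were 0.34 in EG and 1.44 in AG. The age effect was lower in EG for 6 (ChAT, Rdl, Snap25, VGlut, nSyb and para) and higher for none (2.00% and 0.647% of all genes), and the median difference was -1.64. The number lower was 11 with total counts as the scale, 14 with DESeq2 and 10 with at least 10 counts in every library. The vesicle protein nSyb, neuronal synaptobrevin, had 513, 535 and 445 CPM in old EG and 725, 645 and 458 in young EG, against 472, 444 and 481 in old AG and 133, 149 and 255 in young AG. Old EG, young EG and old AG overlapped, and the young AG libraries were the lowest. The change was -0.29 ± 0.23 in EG and 1.37 ± 0.24 in AG, a difference of -1.66 ± 0.33 (edgeR adjusted p = 0.025).

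Rdl, a GABA receptor subunit, had 100, 89.2 and 111 CPM in old EG and 93.4, 89.2 and 66.4 in young EG, against 149, 100 and 69.0 in old AG and 12.4, 13.6 and 24.4 in young AG (-2.32 ± 0.45, edgeR adjusted p = 0.021). The sodium channel gene para had 89.5, 87.5 and 85.6 CPM in old EG and 63.6, 60.0 and 49.3 in young EG, against 165, 121 and 109 in old AG and 32.2, 27.2 and 36.6 in young AG. Its difference was -1.42 ± 0.31 (edgeR adjusted p = 0.031), and here old AG was above old EG in every library. Snap25, another part of the vesicle fusion machinery, VGlut, which loads glutamate into vesicles, and ChAT, which makes acetylcholine, had differences of -2.23 ± 0.50, -1.47 ± 0.28 and -1.79 ± 0.38. VGlut and elav each overlap a gene on the other strand. The neuronal RNA-binding protein elav had 82.7, 71.1 and 77.9 CPM in old EG and 76.6, 55.8 and 35.7 in young EG, against 70.3, 72.6 and 75.6 in old AG and 7.44, 30.8 and 35.1 in young AG. It rose in AG, and its difference did not pass the test (-1.03 ± 0.56, edgeR adjusted p = 0.37). The summed level of the neuron markers was 6376 to 7157 CPM in old EG and 5224 to 8145 in young EG, against 4465 to 6115 in old AG and 1646 to 3039 in young AG, and the part of neuronal RNA in the sorted libraries in these differences was not tested.

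Neuropeptide genes were among those with the largest differences. Of 29 precursors tested 2 rose and 1 fell in EG in edgeR (3.34% and 2.25% of all genes). In AG 13 rose and none fell (9.38% and 6.98% of all genes). The age effect was lower in EG for 5 (Capa, Ms, AstA, sNPF and spab) and higher for none (2.00% and 0.647% of all genes). The median difference was -3.49, or -2.28 with groups at 0 set to the floor. The number lower was 8 with DESeq2, 2 with limma voom and 1 with at least 10 counts in every library. That last filter leaves out precursors with few reads in young AG, Capa among them, so it did not test those. Ms, which encodes myosuppressin, had 255, 882 and 464 CPM in old EG and 1470, 346 and 954 in young EG, against 276, 554 and 965 in old AG and 3.31, 6.62 and 2.61 in young AG. The first 3 groups overlapped and young AG was far below. The difference was -8.02 ± 0.94 (edgeR adjusted p = 0.0027). Capa (FBgn0039722), which encodes capability peptides, had 121, 34.2 and 234 CPM in old EG and 390, 123 and 158 in young EG, against 202, 348 and 557 in old AG and 0, 0 and 0.0899 in young AG, where 1 read was counted over the 3 libraries. The ratio of old to young AG was 6662, with a 95% counting interval of 1196 to 263166, which covers counting error only. Short neuropeptide F, sNPF, had 323, 261 and 284 CPM in old EG and 304, 260 and 245 in young EG, against 471, 292 and 523 in old AG and 3.31, 27.8 and 67.0 in young AG (-3.49 ± 0.76, edgeR adjusted p = 0.034). The summed level of the precursors was 3051 to 4024 CPM in old EG and 4057 to 5881 in young EG, against 2376 to 5096 in old AG and 156 to 1276 in young AG.

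**Figure D4:**
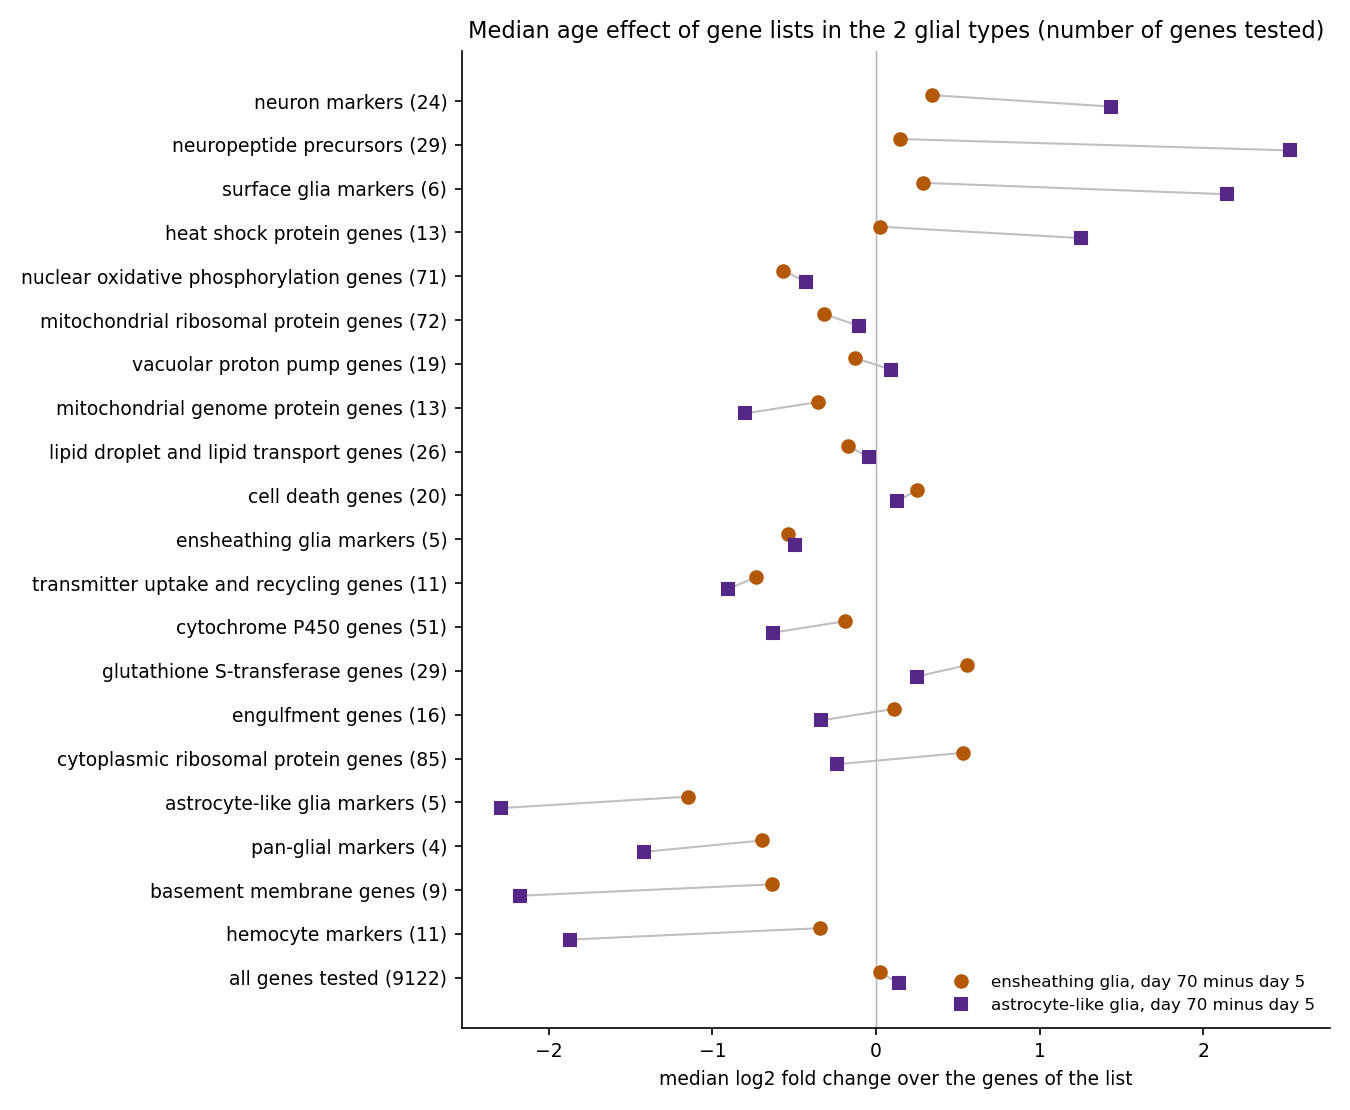
Median log2 change with age of 21 gene groups in EG (orange circles) and in AG (purple squares). The EG medians of neuron markers (0.34) and neuropeptide precursors (0.14) lie below the AG medians (1.44 and 2.53), and those of astrocyte-like glia markers (-1.15) and hemocyte markers (-0.34) above the AG medians (-2.29 and -1.87).

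A small set of genes fell in EG and rose in AG. The 8 genes called in both types in opposite directions were comt, NaPi-III, VhaM9.7-a, lncRNA:CR31451, Gdh, nwk, CG43707 and lncRNA:CR31781, and all 8 had a lower age effect in EG. The gene comt (FBgn0000346, chromosome X, 13259021 to 13262488, plus strand) encodes NSF, the ATPase that takes apart spent vesicle fusion complexes. It had 148, 168 and 172 CPM in old EG and 415, 340 and 329 in young EG, against 180, 192 and 214 in old AG and 91.7, 74.5 and 107 in young AG. No 2 groups overlapped, and the old groups lay between young EG above and young AG below. The change was -1.15 ± 0.18 in EG (edgeR adjusted p = 0.0035) and 1.10 ± 0.18 in AG (edgeR adjusted p = 0.0015), a difference of -2.24 ± 0.25 (edgeR adjusted p = 0.0025).

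NaPi-III (FBgn0260795, chromosome 3L, 11123348 to 11134663, plus strand), named for a sodium and phosphate transporter, had 209, 249 and 228 CPM in old EG and 384, 371 and 413 in young EG, against 259, 224 and 231 in old AG and 126, 111 and 86.3 in young AG. The old libraries of both types overlapped between the young ones. The difference was -1.92 ± 0.24 (edgeR adjusted p = 0.0033). VhaM9.7-a, a subunit of the proton pump that acidifies vesicles and lysosomes, had 138, 128 and 128 CPM in old EG and 220, 192 and 219 in young EG, against 134, 122 and 143 in old AG and 63.6, 66.2 and 76.5 in young AG. It showed the same order, with a difference of -1.63 ± 0.22 (edgeR adjusted p = 0.0055). Of 19 proton pump genes tested 2 had a lower age effect in EG, against 2.00% of all genes. They were VhaM9.7-a and Vha68-1 (-1.64 ± 0.30, edgeR adjusted p = 0.018), and the median difference of the 19 was -0.14. The number lower was 5 with total counts as the scale. The noncoding gene lncRNA:CR31451 had 2744, 2746 and 2106 CPM in old EG and 4027, 3862 and 4033 in young EG, against 5266, 3584 and 3686 in old AG and 2291, 2338 and 2221 in young AG (-1.52 ± 0.22, edgeR adjusted p = 0.0073). It overlaps smaller noncoding genes on its strand, and, as for comt, its level in old AG was above that in old EG in every library. All 4 of these genes were called in each of the 12 fits without 1 library.

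Large AG changes were also seen in CG8620 and ImpL2. CG8620, a gene of no described function, rose in both types and more in AG. It had 49.5, 73.1 and 74.4 CPM in old EG and 1.44, 1.92 and 1.61 in young EG, against 69.3, 96.0 and 114 in old AG and 0, 0 and 0.0899 in young AG, where again 1 read was counted. The fitted change in EG was 5.30 ± 0.36 (edgeR adjusted p = 1.8e-05), and the ratio of old to young AG was 1556 with a 95% counting interval of 279 to 61488. ImpL2, a secreted protein that binds insulin-like peptides, had 34.1, 28.5 and 45.7 CPM in old EG and 40.0, 237 and 46.0 in young EG, against 428, 368 and 140 in old AG and 12.4, 12.9 and 18.3 in young AG. Old AG was above old EG in every library, replicate 2 of young EG stood apart from its group, and the difference was -5.95 ± 0.90 (edgeR adjusted p = 0.0078).

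Heat shock genes were called in both directions, and the difference in age effect was negative for most of them. Of 13 tested none passed the test in EG in edgeR (3 higher and 3 lower at an unadjusted p below 0.05), where 5.59% of all genes did. In AG 4 rose and 2 fell (9.38% and 6.98% of all genes). The age effect was higher in EG for Hsp70Ba and Hsp70Bb and lower for Hsp60A (0.647% and 2.00% of all genes). The difference was negative for 10 of the 13 and positive for 3, with a median of -1.30. The median change was 0.03 in EG and 1.25 in AG. Hsp70Ba, an inducible cytosolic chaperone, had 240, 207 and 202 CPM in old EG and 272, 313 and 291 in young EG, against 134, 91.2 and 158 in old AG and 628, 546 and 575 in young AG (1.76 ± 0.27, edgeR adjusted p = 0.0088). Old AG was the lowest and young AG the highest group, with EG between them. The Hsp70 genes are near-identical copies whose reads can be split between them, so the value of any 1 copy is uncertain. Hsp60A, the mitochondrial chaperonin, had 325, 433 and 412 CPM in old EG and 538, 464 and 522 in young EG, against 521, 465 and 402 in old AG and 160, 204 and 216 in young AG (-1.63 ± 0.25, edgeR adjusted p = 0.0078). Its young AG libraries lay below all others.

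Cytochrome P450 genes, which oxidise lipids, hormones and foreign compounds, had a higher age effect in EG at 4 of 51 tested (Cyp28a5, Cyp4g15, Cyp6a23 and Cyp9f2). None had a lower one, against 0.647% of all genes higher and 2.00% lower, and with total counts as the scale none was called. Cyp9f2 had 673, 629 and 698 CPM in old EG and 635, 697 and 668 in young EG, against 613, 623 and 611 in old AG and 1417, 1182 and 1034 in young AG. It was close in old EG, young EG and old AG and higher in young AG, with a difference of 0.98 ± 0.20 (edgeR adjusted p = 0.024). The differences of the other 3 were 1.01 to 1.54.

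Several groups of genes had no member whose age effect passed edgeR's test of a difference, which 2.64% of all genes passed. At that share groups of this size would hold few calls or none, so these counts do not show equal age effects. Age changes were called as rises at 3.34% and falls at 2.25% of all genes in EG, and at 9.38% and 6.98% in AG. For some of these groups no member was called by DESeq2 or limma voom either, among them 9 antimicrobial peptide genes, 13 protein genes of the mitochondrial genome and 19 septate junction genes, with none at an unadjusted p below 0.05, and 35 proteasome genes, with 2. Of 20 cell death genes 3 were at an unadjusted p below 0.05 (2 higher and 1 lower in EG) and DESeq2 and total counts as the scale called 1 each. Of 71 nuclear oxidative phosphorylation genes 7 were lower in EG at an unadjusted p below 0.05, and DESeq2 and limma voom called 1 each and total counts as the scale 5. Of 72 mitochondrial ribosomal protein genes 9 were lower at that level and DESeq2 called 1. Of 16 glycolysis and trehalose genes 3 were higher and 1 lower at that level, with 1 called by DESeq2 and 1 by limma voom. Of 29 glutathione S-transferase genes 6 were higher and 1 lower, with 4 called by DESeq2 and 3 by limma voom. Antimicrobial peptide genes had medians of 3.39 in EG and 3.66 in AG, with none of 9 called in EG (4 higher at an unadjusted p below 0.05) and 3 in AG in edgeR. Of the 9 genes 3 had a group at 0, and with those groups set to the floor the medians were 3.39 in EG and 1.78 in AG. Their summed level was 974 CPM in replicate 3 of old EG and 928 in replicate 3 of old AG, and 21.2 to 198 in the other 10 libraries. Nuclear oxidative phosphorylation genes fell in both types, 17 in EG and 11 in AG with 1 that rose there, with medians of -0.57 and -0.43, or -0.50 and -0.04 with total counts as the scale. Genes of the mitochondrial genome fell at 6 of 13 in EG and 7 in AG, with medians of -0.35 and -0.80 and a median difference of 0.16, or -0.15 with total counts as the scale.

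Of 26 lipid droplet and lipid transport genes 1 differed in age effect, Nplp2, against 2.64% of all genes, and the median difference was 0.19. With total counts as the scale the median was -0.12, none was called higher and 1 was called lower. Nplp2, a small secreted protein that carries lipids, had 31.6, 29.7 and 34.2 CPM in old EG and 472, 534 and 302 in young EG, against 25.2, 59.8 and 30.1 in old AG and 1677, 1860 and 1648 in young AG. The old libraries overlapped and young AG was above young EG. Nplp2 fell by 3.78 ± 0.32 in EG and by 5.49 ± 0.34 in AG, with a difference of 1.71 ± 0.41 (edgeR adjusted p = 0.046). Jabba, a lipid droplet protein outside that list, had 34.1, 32.7 and 52.5 CPM in old EG and 26.0, 33.8 and 25.0 in young EG, against 22.7, 34.6 and 26.0 in old AG and 68.6, 104 and 106 in young AG (2.24 ± 0.41, edgeR adjusted p = 0.017). It overlaps Cyp12b2 on the other strand.

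The fatty acid transporter Fatp1 had 797, 783 and 713 CPM in old EG and 119, 129 and 194 in young EG, against 156, 1032 and 763 in old AG and 184, 329 and 277 in young AG. It rose in EG by 2.37 ± 0.49 (edgeR adjusted p = 0.016) and did not pass the test in AG (1.30 ± 0.48, edgeR adjusted p = 0.082), where replicate 1 of old AG lay below the other old libraries. The difference itself did not pass (1.07 ± 0.67, edgeR adjusted p = 0.44). The apoptosis gene hid had 13.9, 21.9 and 19.3 CPM in old EG and 9.15, 7.69 and 3.65 in young EG, against 9.79, 32.1 and 4.09 in old AG and 8.26, 10.3 and 18.6 in young AG. Old EG was above young EG in every library and AG overlapped, but neither change nor their difference passed the test (difference 1.20 ± 0.94, edgeR adjusted p = 0.56). For cass the difference was -0.76 ± 0.38 (edgeR adjusted p = 0.32). For egr it was 0.48 ± 0.52, for sgl -0.24 ± 0.39 and for the pan-glial factor repo 0.54 ± 0.25, and none of the 3 passed. Both sgl and repo overlap a gene on the other strand.

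Markers of other cells that the sorted suspensions could hold gave few calls, where 0.647% of all genes were called higher in EG and 2.00% lower. The age effect was higher in EG for 1 of 5 fat body markers (Yp2, a yolk protein), 1 of 3 cortex glia markers (Cyp4g15) and 1 of 4 pan-glial markers (Gs2). None of these 3 lists had a marker called higher with total counts as the scale, and 1 cortex glia marker was called lower. It differed for none of 6 surface glia markers in edgeR (2 lower in EG at an unadjusted p below 0.05). DESeq2 and limma voom called 1 of them lower each. The difference was negative for all 6, with a median of -1.75. In AG 3 of the 6 rose and in EG none did (9.38% and 3.34% of all genes), with medians of 2.14 in AG and 0.29 in EG. None of 10 muscle and 16 photoreceptor markers differed in edgeR, DESeq2 or limma voom, and none was at an unadjusted p below 0.05. Yp2 had 11.1, 25.1 and 44.5 CPM in old EG and 9.63, 8.08 and 10.8 in young EG, against 41.5, 41.6 and 29.0 in old AG and 79.3, 85.4 and 64.0 in young AG (2.52 ± 0.58, edgeR adjusted p = 0.041). Its old libraries overlapped and young EG was lowest.

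**Figure D5:**
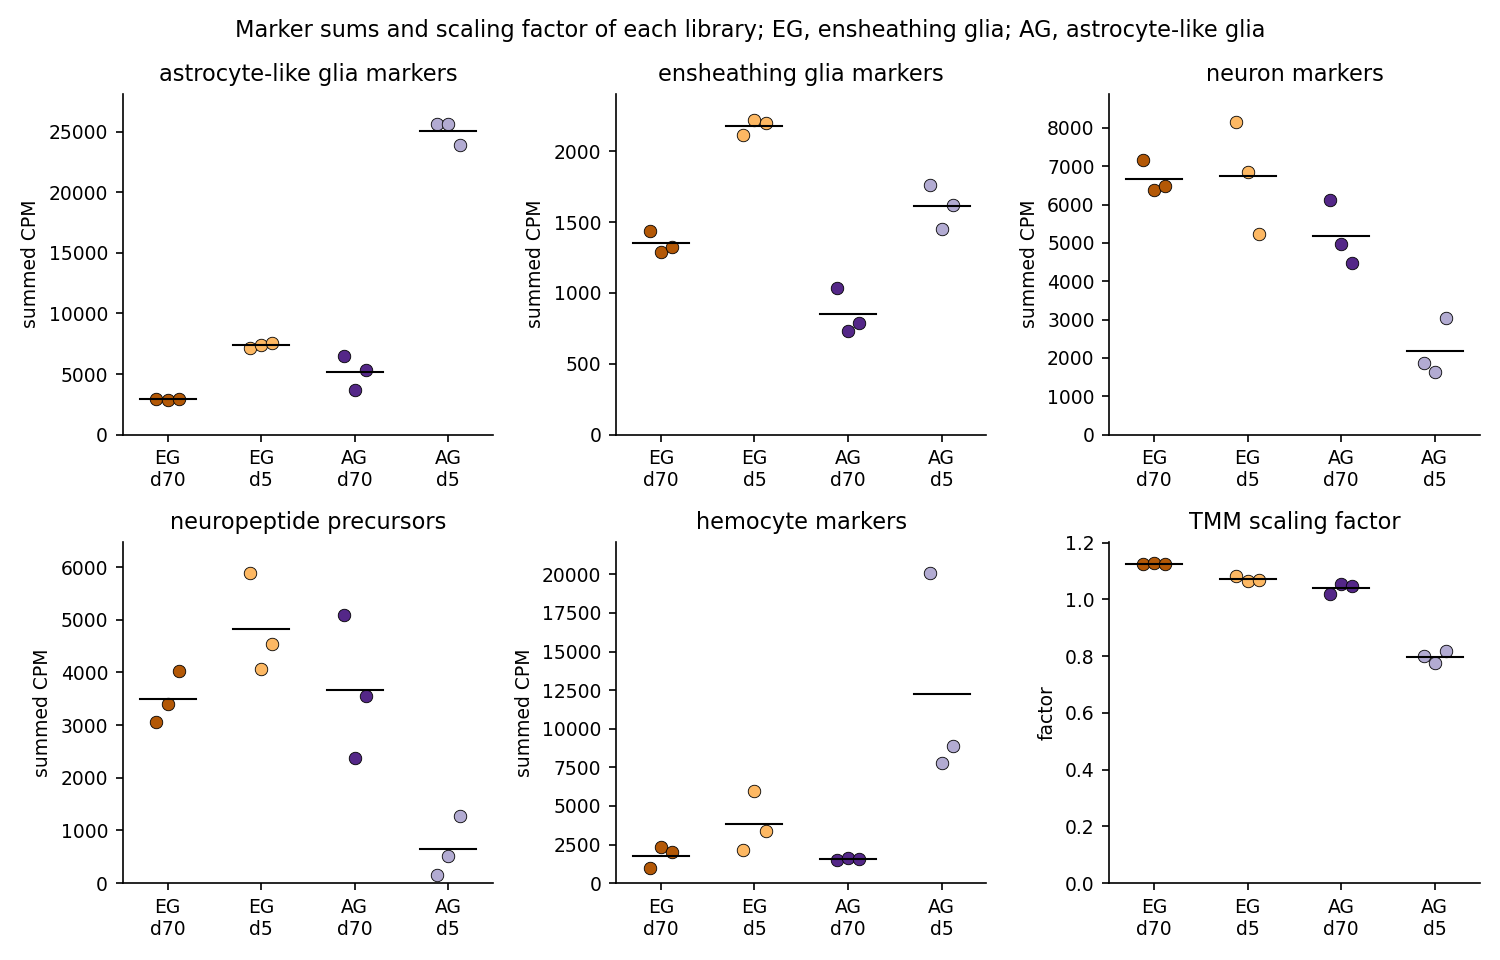
Summed CPM of the markers of astrocyte-like glia, ensheathing glia, neurons, neuropeptide precursors and hemocytes, and the TMM factor, in each of the 12 libraries (points) with the group mean as a line. The young AG libraries have the highest astrocyte-like glia (23900 to 25661 CPM) and hemocyte sums, and the lowest neuron sums (1646 to 3039 CPM) and TMM factors.

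The same difference was then taken in the unsorted suspensions, in which the 2 lines were not separated by cell type. Between the GMR56F03 and GMR86E01 whole brains no gene of 9285 differed in age effect in edgeR (0.00% called), with 448 genes at an unadjusted p below 0.05, and DESeq2 called 3 and limma voom 0. The value for Msp300 was 0.13 and that for comt -0.05 there. The difference in sorted cells beyond that in whole brain, tested over 24 libraries, was called at 247 of 10015 genes (2.47%), 29 higher (0.290%) and 218 lower (2.18%) in EG, and with the pool of brains as a block at 149, 24 higher and 125 lower. This test shares the 12 sorted libraries with the first. Beyond whole brain, Msp300 differed by 1.12 (edgeR adjusted p = 0.0044), comt by -2.21 (edgeR adjusted p = 3.6e-04) and NaPi-III by -2.10 (edgeR adjusted p = 1.7e-04), against 1.28, -2.24 and -1.92 in sorted cells alone. Eaat1 did not pass beyond whole brain, with 0.73 (edgeR adjusted p = 0.44). The count was 774 without young AG replicate 3. It was between 137 and 164 without replicate 1 or 3 of the young GMR56F03 or GMR86E01 whole brain, replicate 1 or 2 of the old GMR56F03 whole brain, replicate 2 or 3 of the old GMR86E01 whole brain, or young EG replicate 1.

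Set against whole brain of the same line, the genes with a lower age effect in EG were lower in the sorted cells and those with a higher age effect were higher. At d70 the median log2 difference between sorted EG and whole brain was -1.08 for the 182 genes and 1.70 for the 59 genes, and between sorted AG and whole brain it was -1.04 and 1.70. Over the same 9122 genes as a whole both medians were 0.08. Of all 10015 genes tested, 33.2% differed between old EG and whole brain (18.7% higher and 14.5% lower in EG), and 35.4% between old AG and whole brain (19.8% higher and 15.6% lower in AG). These medians use the old libraries that also enter the difference in age effect.

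The second ensheathing glia line allowed the age effect of EG to be compared between drivers. Between GMR56F03 and GMR10E12 sorted EG 64 of 9265 genes (0.691%) differed in age effect, 42 higher (0.453%) and 22 lower (0.237%) in GMR56F03, or 62 higher and 19 lower with total counts as the scale. The comparison shares the 6 GMR56F03 libraries with the difference between EG and AG. NaPi-III, lower by 1.92 in EG than in AG, was also lower in GMR56F03 than in GMR10E12 (-1.19, edgeR adjusted p = 0.0096). The glutamate receptor gene KaiR1D went opposite ways, with -2.22 between EG and AG (edgeR adjusted p = 0.012) and 1.85 between the drivers (edgeR adjusted p = 0.045). Msp300 (0.07, edgeR adjusted p = 0.94), comt (0.30, edgeR adjusted p = 0.77) and VhaM9.7-a (-0.26, edgeR adjusted p = 0.77) did not pass. The count of 64 was 40 and 42 without replicate 1 or 2 of young GMR10E12, 138 without its replicate 3 and 141 without replicate 3 of old GMR10E12. It was 36 and 22 without replicate 1 or 2 of young EG, and 22, 30 and 33 without replicate 1, 2 or 3 of old EG.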

How the data were processed

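RNA-seq of sorted and unsorted fly brain cells was analysed from the read counts per gene that the authors deposited, not normalized. The authors aligned paired reads with STAR 2.7.3a to dm6, removed unmapped and unpaired reads, and counted reads on FlyBase exons in union mode. Collapsing of molecular identifiers and use of strand are not given in the sources used here. Of 17562 genes, 17502 symbols matched a dm6 annotation, from which positions came.

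The difference in age effect, both age effects and both comparisons of glial types were contrasts of 1 edgeR fit over 12 libraries with 1 coefficient per group (edgeR 4.0.16 in R 4.3.3, TMM, default filter on low counts, quasi-likelihood test, two-sided, Benjamini-Hochberg adjusted p under 0.05). The main design follows the study's comparison of sorted libraries by age, which used DESeq2. Standard errors are the size of the log2 change divided by the square root of F. The difference beyond whole brain was fitted over 24 libraries and that between drivers over the 12 EG libraries, each filtered on its own. A group at 0 was set to a floor of 3 counts per library. Intervals and floors cover counting error only.

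Genes to name were drawn, among called genes, from the 12 of smallest p in each direction and the 6 of largest difference in each direction with a mean log2 CPM of at least 5. To these came called or type-defining members of 37 gene lists, and 9 genes the study names. Not all of them are described above, and CG9813, bdl, wun and Chd64 are examples of genes of smallest p that are not. Genes called in EG alone or in opposite directions were chosen after their values were seen. The libraries, lists and tests were chosen with earlier results of these data known.

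Counts were simulated for the difference in age effect (8972 genes), with 1 mean level per gene in all 4 groups. Chosen genes were then changed in old EG alone. The test recovered 1% of 100 genes changed by 1 and 27% of 100 changed by 2 on the log2 scale, with 1 false call. Alternatives were DESeq2 1.42.0, DESeq2 size factors, total counts as the scale, no filter or at least 10 counts in every library, no ribosomal RNA and mitochondrial genes, a replicate block, other sets of libraries in the fit, thinned counts and each library left out. Added after the data were seen were limma 3.58.1 voom with library weights and all alternatives for the comparison of drivers.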

Additional observations from a re-analysis of the deposited data

Results flagged for a closer look

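Effects of the same age contrast differed between groups, by a test of the difference itself, in 3 comparisons. The age effect differed between EG and AG at 241 genes, in sorted cells beyond whole brain at 247 genes, and between the EG drivers GMR56F03 and GMR10E12 at 64 genes.

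Among single genes, 4 of the 8 that were called in opposite directions in EG and AG were among the genes of smallest p. Their differences in age effect were -1.92 for NaPi-III, -1.63 for VhaM9.7-a, -2.24 for comt and -1.52 for lncRNA:CR31451, each from a fall in EG and a rise in AG. At d70 the log2 difference between EG and AG was -0.06 for NaPi-III, -0.02 for VhaM9.7-a, -0.26 for comt and -0.72 for lncRNA:CR31451, and none of these passed the test.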

How the results depend on the processing

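All 241 genes kept their direction in every alternative in which they were tested, and no gene named above reversed. Counts of genes called moved with the test and the libraries fitted, and the cause was not tested. For the difference in age effect DESeq2 called 732 (291 higher and 441 lower, all 241 among them), total counts as the scale 400 (200 of the 241), 1 fit over all 36 libraries 708 (212), 1 fit over the 18 sorted libraries 377 (219) and limma voom with library weights, added after the data were seen, 383 (180 higher and 203 lower, 196 of the 241). The replicate number as a block left 128 (124 of the 241). Whether the numbers pair the sorted libraries could not be told. Deviations from the group means correlated with a mean of 0.026 over 18 same-numbered pairs (-0.051 to 0.173). The mean was -0.013 over 36 others (-0.215 to 0.175). Deviations cancel within a group, so these means are tied to each other and cannot decide the question. Under this block no ribosomal protein, P450, hemocyte, basement membrane, fat body or cortex glia gene was called, nor Ugt50B3, and 1 engulfment gene, 3 neuron markers, 2 transmitter uptake genes higher in EG and 1 astrocyte-like glia marker were. It moved no other comparison's count over all genes by more than 1.5 times. Without 1 library 42 to 601 genes were called.

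Age changed in EG 884 genes with DESeq2, 1592 with limma voom and 1297 in a fit of the 6 EG libraries alone, and 146 to 713 without 1 library. In AG it changed 922 with limma voom and 553 in the 6 AG libraries alone, and 1052 to 1619 without 1 library. Between the types 772 to 1524 genes differed at d5 without 1 library. At d70 115 differed with DESeq2, 48 with no filter, 48 in the fit of 36 libraries and 112 with limma voom, and 13 to 60 without 1 library. In whole brain DESeq2 called 3, no filter 1 and at least 10 counts in every library 2, and 0 to 1 were called without 1 library. Beyond whole brain DESeq2 called 609, total counts 491, the fit of 36 libraries 108 and the brain pool as a block 149, with 137 to 774 without 1 library. Between drivers DESeq2 called 283, no filter 257 and limma voom 98, with 22 to 141 without 1 library.

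Depth differed widely between libraries, and counts thinned to the smallest library called 255 genes. The test had little power in the simulation, which recovered 1% of genes changed by 1 and 27% of those changed by 2 on the log2 scale. Only old EG was changed in it and all other genes were held equal, so recovery in these data can differ. Most differences of either size were missed there, so a gene that did not pass may still differ. With 3 libraries a group every value is limited.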

Other observations

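Tdc2 and Vmat differed between EG and AG at both ages. Tdc2, the tyrosine decarboxylase that begins octopamine synthesis, averaged 552 CPM in old EG and 340 in young EG, against 15.4 in old AG and 10.8 in young AG. Vmat, the vesicular monoamine transporter, had 2319, 1766 and 1714 CPM in old EG and 1560, 1100 and 1082 in young EG, against 154, 399 and 101 in old AG and 299, 60.9 and 246 in young AG. Both were higher in every EG library than in every AG library. At d70 the log2 difference was 5.19 ± 0.71 for Tdc2 (edgeR adjusted p = 0.0048) and 3.15 ± 0.56 for Vmat (edgeR adjusted p = 0.030). At d5 it was 4.83 ± 0.71 for Tdc2 (edgeR adjusted p = 7.0e-04) and 2.63 ± 0.55 for Vmat (edgeR adjusted p = 0.0060), and the differences in age effect did not pass the test (0.36 ± 0.88 and 0.51 ± 0.73). Vmat overlaps a gene on the other strand. Tdc2 and Arc1 were singled out after their values were seen.

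Arc1, a retroviral capsid-like gene that packages RNA, rose in both types. It averaged 2275 CPM in old EG and 27.8 in young EG, against 3707 in old AG and 124 in young AG. It rose in EG by 6.34 ± 0.52 (edgeR adjusted p = 5.3e-05) and in AG by 4.89 ± 0.48 (edgeR adjusted p = 6.3e-05), and its difference of 1.45 ± 0.59 did not pass (edgeR adjusted p = 0.21).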
